A study of Mus musculus with 12 samples.

Results

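Pou5f1, Sox2, Nanog and Sall4 are 4 of the 22462 genes in a table of ribosome profiling counts from mouse cells in culture, embryonic stem cells (ESCs) on the one hand and epiblast-like cells (EpiLCs) on the other. They were chosen by name, as transcription factors of the core pluripotency network, and all 4 were found in the table, in all 12 libraries, and passed the filter on low counts. ESCs were cultured with fetal bovine serum, LIF and the 2i inhibitors, which hold them in the naive state. EpiLCs were obtained from ESCs by removing LIF and 2i, and were collected about 56 hours later. Ribosome protected fragments (RPFs), the stretches of mRNA covered by ribosomes, were sequenced in 3 libraries per cell type, and total RNA in another 3. The study's methods list a single mouse ESC line with microRNA reporters for its differentiation experiments, and its text calls the replicates biological. The labels do not say whether they came from separate cultures, so p values measure the spread between these libraries. The question was whether mRNA level, ribosome occupancy and their ratio, the translational efficiency (TE), of these factors differ between the naive and the later pluripotent state. All 4 genes were detected in every library of both states, yet they were not kept to the same extent. From ESCs to EpiLCs Sox2 mRNA was 6.58-fold lower, Nanog 3.00-fold and Pou5f1 1.57-fold, whereas the Sall4 levels of the 2 states overlapped.

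Pou5f1 encodes OCT4, a POU domain factor without which the inner cell mass does not keep its identity. Sox2 encodes an HMG box factor that pairs with OCT4 on composite DNA elements made of a SOX core next to an octamer. Nanog encodes a homeodomain protein that stabilizes the naive state and is itself a target of the OCT4 and SOX2 pair. Sall4 encodes a zinc finger protein that binds OCT4 and NANOG and occupies many of the same enhancers.

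Promoters of Nanog, Sox2 and Pou5f1 hold letters of the elements that OCT4 and SOX2 bind, and that of Sall4 was not analysed here. RefSeq promoter windows on GRCm38.p6, from 250 bases before to 50 bases after each gene start, were searched on both strands for a SOX core (CATTGT), an octamer core (ATGCAAA) and a composite of both (CATTGTNATGCAAA, which holds the other two). The octamer core was in 4.63% of all promoters, the SOX core in 12.6% and the composite in 0.00609%, that is in 2 of 32817 promoters. Both of these belong to Nanog, overlap and hold the same single site, so by these letters it was 1 of 26994 genes. The Nanog window (chr6:122707406-122707435, plus strand) holds the composite on the opposite strand at -75 to -62 from the first gene start, whose base counts as 0. The Sox2 window (chr3:34649885-34649914, plus strand) holds an octamer core at -99 to -93. The second of 2 Pou5f1 promoters (chr17:35508637-35508666, plus strand) holds a SOX core on the opposite strand, and the first holds none of the 3 letter strings. The start of that second promoter, at chr17:35508807, lies inside the gene, within the span of its counted bases. These windows are shown because they hold the letters known to be bound by the products of Pou5f1 and Sox2, with the match in capitals. A match is a description of the letters and no evidence of binding in these cells.
Nanog: cagcttctTTTGCATTACAATGtccatggt
Sox2: cgccccctttcATGCAAAaccctctggcga
Pou5f1: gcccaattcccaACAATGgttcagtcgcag

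Reads were counted on coding sequence without its first 45 nt, and the mm10 coordinates span the counted bases of each gene. Pou5f1 (ENSMUSG00000024406.16) was counted over 1014 nt in 5 coding exons at chr17:35506145-35510551. Sox2 (ENSMUSG00000074637.7) was counted over 915 nt in its 1 coding exon at chr3:34650461-34651375. Nanog (ENSMUSG00000012396.12) was counted over 873 nt in 4 coding exons at chr6:122707828-122713555. Sall4 (ENSMUSG00000027547.17) was counted over 3159 nt in 4 coding exons at chr2:168750029-168766984, on the minus strand. No other gene of the table shares counted bases with these 4 genes on their strand.

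Copies elsewhere in the genome limit what could be counted, since only reads with 1 mapping position were kept. Of the Pou5f1 coding stretches as long as the shortest RPF read (26 nt), 34.4% also occur in annotated transcripts of 6 other genes, and at 50 nt, the longest total RNA read, 21.4% occur in 2 of them. For Nanog the shares were 17.5% at 26 nt, from the pseudogenes Nanog-ps1 and Nanog-ps2, and 7.31% at 50 nt, from Nanog-ps1 alone. For Sox2 they were 3.72% and 0%, and for Sall4 1.69% and 0.869%. The levels and TE of Pou5f1 and Nanog, and the ratios to Pou5f1 given below, are uncertain to that extent. For both genes the share was larger at 26 nt than at 50 nt, and the part of these copies in the values was not tested.

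RPF libraries held 4777262 to 11359352 counts for ESCs and 2681439 to 5413144 for EpiLCs, and total RNA libraries 11491044 to 13477432 for ESCs and 6188838 to 14655015 for EpiLCs. The lowest count of any member was 103, for Sox2 in EpiLC RPF replicate 2, with an exact 95% Poisson interval of 84.1 to 125 that covers counting error only. Marker lists, chosen with earlier results of these data known, describe the labelled states and do not test them. Calls needed both an adjusted p below 0.05 and an absolute log2 fold change above 1. Of 10 naive markers 9 were called lower in EpiLCs for mRNA, beside 9.70% of all genes, and Dppa3 (log2 fold change 0.92) was not. Of 9 formative and primed markers 8 were called higher, beside 14.6% of all genes, with Etv4 at -0.85. Prdm14, Lef1 and Fgf5 passed the low count filter only through the cell type where they are high, so they had to differ. Without them 8 naive and 6 formative and primed markers were called. The largest naive falls were those of Prdm14 (-5.81 ± 0.62), Klf4 (-5.52 ± 0.36) and Klf2 (-5.18 ± 0.42), and the largest formative and primed rises those of Fgf5 (5.76 ± 0.67), Lef1 (3.32 ± 0.37) and Otx2 (3.11 ± 0.18). Some libraries stood apart in these markers. In ESC total RNA replicate 2 the formative and primed markers summed to 333 CPM, against 230 and 264 CPM in replicates 1 and 3. In EpiLC RPF replicate 1 the naive markers summed to 287 CPM, against 159 and 157 CPM, and in EpiLC total RNA replicate 1 to 119 CPM, against 66.3 and 95.6 CPM. The Fgf5 rise was 6.88 without ESC total RNA replicate 2, and the Prdm14 change was -6.83 without EpiLC total RNA replicate 1. Values of the 4 genes without these libraries follow beside their mRNA, RPF and TE changes and their ratios.

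Levels are given as CPM (counts relative to library size, after TMM scaling) per kb of counted sequence, which allows genes to be compared. Pou5f1, the gene of OCT4, was the highest of the 4 genes in every library. In total RNA it stood at 1491, 1494 and 1620 CPM per kb in ESCs and at 1001, 883 and 1035 in EpiLCs. In RPF it stood at 1520, 1536 and 1586 in ESCs and at 1084, 1017 and 1176 in EpiLCs. The ESC and EpiLC libraries did not overlap in either assay, yet in each library Pou5f1 remained above 99.35% to 99.83% of the genes tested. The EpiLC mean was 63.4% of the ESC mean in total RNA and 70.6% in RPF.

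Nanog was second in both cell types and both assays. In total RNA it stood at 588, 538 and 595 CPM per kb in ESCs and at 199, 186 and 186 in EpiLCs. In RPF it stood at 1244, 1340 and 1379 in ESCs and at 458, 390 and 445 in EpiLCs. The groups were well apart, and the EpiLC mean was 33.2% of the ESC mean in total RNA and 32.6% in RPF. Nanog was above 94.7% to 95.1% of genes in EpiLC total RNA.

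Sox2 showed the widest gap. In total RNA it stood at 214, 185 and 230 CPM per kb in ESCs and at 34.5, 26.4 and 32.1 in EpiLCs. In RPF it stood at 337, 374 and 342 in ESCs and at 46.5, 42.8 and 44.1 in EpiLCs. Every ESC library was thus far above every EpiLC library, and the EpiLC mean was 14.8% of the ESC mean in total RNA and 12.7% in RPF. In ESC total RNA Sox2 lay above 94.2% to 95.7% of genes, and in EpiLC total RNA above 54.5% to 62.6%.

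Sall4 was the only one of the 4 genes whose cell types overlapped. In total RNA it stood at 99.0, 91.6 and 105 CPM per kb in ESCs and at 95.2, 89.7 and 86.5 in EpiLCs. In RPF it stood at 132, 137 and 140 in ESCs and at 133, 131 and 119 in EpiLCs. The EpiLC mean was 91.7% of the ESC mean in total RNA and 93.9% in RPF. Overlap of the cell types was not counted over all genes tested. For mRNA 30.7% of these genes passed as lower and 34.6% as higher (limma, adjusted p below 0.05).

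**Figure D1:**
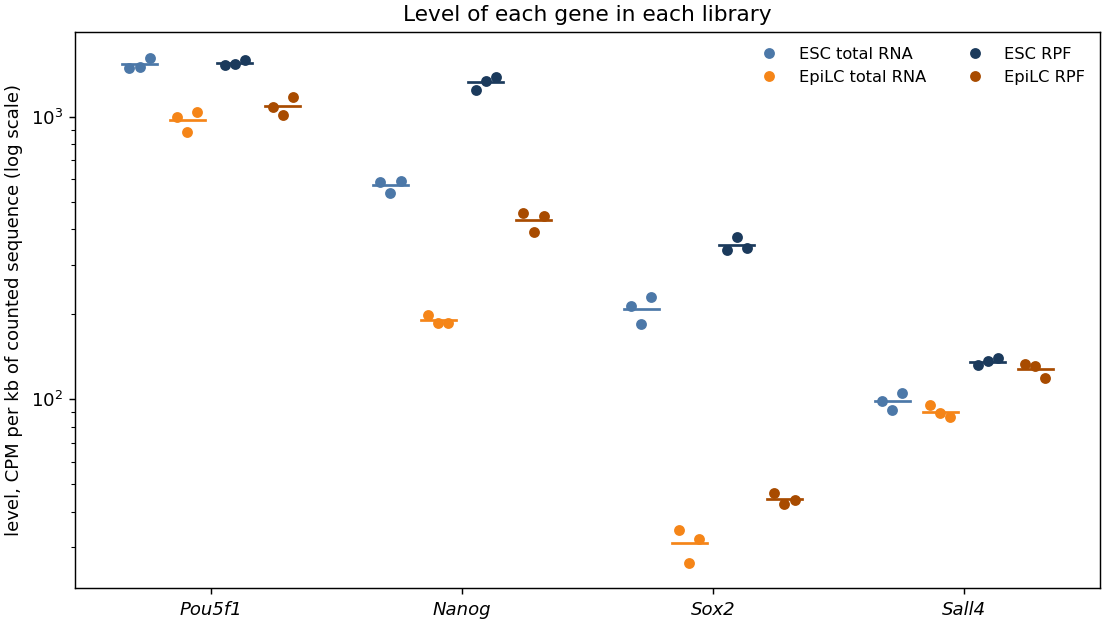
Level of each gene (CPM per kb of counted sequence, log axis) in each library. Points are libraries, 3 per group, and lines are group means. Pou5f1, Nanog and Sox2 were lower in every EpiLC library than in every ESC library of the same assay, while for Sall4 the groups overlapped.

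The order of the 4 genes changed between the states. In ESCs it was Pou5f1, Nanog, Sox2 and Sall4, and in EpiLCs Pou5f1, Nanog, Sall4 and Sox2, in total RNA and RPF alike. Neighbours in this order did not overlap in any of the 4 groups. The narrowest step was in ESC RPF, where Pou5f1 was 1.17-fold above Nanog, against 2.68-fold in ESC total RNA and 5.11-fold in EpiLC total RNA. Relative spread between libraries of a group was 2.22% to 8.20% of the mean (SD over mean) for Pou5f1, 4.04% to 8.35% for Nanog, 4.17% to 13.3% for Sox2 and 2.92% to 6.99% for Sall4.

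The changes were tested in 1 model over all 12 libraries with limma on voom weights, and p values were adjusted over the 11750 genes tested. A gene passed the test at an adjusted p below 0.05, and was called if its absolute log2 fold change also exceeded 1. For mRNA 3 of the 4 genes passed as lower, beside 30.7% of all genes, and 2 of the 4 were called lower, beside 9.70% of all genes. Sox2 mRNA fell by 2.72 ± 0.11 on the log2 scale (SE, adjusted p = 6.86e-17), a 6.58-fold difference. Nanog mRNA fell by 1.58 ± 0.07 (adjusted p = 2.47e-16), a 3.00-fold difference. Pou5f1 mRNA fell by 0.65 ± 0.05 (adjusted p = 8.51e-11), which passed the test but not the limit on fold change. Thus the genes lower in EpiLCs spanned from 1.57-fold to 6.58-fold, and the median of all genes tested was 0.03 on the log2 scale. In bulk samples fewer cells with a transcript and less transcript per cell cannot be told apart.

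For Sall4 mRNA the fold change was -0.12 ± 0.06 on the log2 scale (limma, adjusted p = 0.0979), with a 95% interval of -0.25 to 0.01. That interval leaves room for a fall of up to 1.19-fold, and the p value does not show that the level was equal. The call rested on the settings. Sall4 mRNA passed the test with DESeq2 (-0.17, adjusted p = 0.0380), with DESeq2 size factors in limma (-0.16, 0.0286), without the filter on low counts (-0.15, 0.0492), and when 1 library was omitted at a time in 7 of 12 cases, those without each of the 6 RPF libraries and without ESC total RNA replicate 2 (-0.17, 0.0297). The RPF libraries hold no total RNA counts. Without each of them Sall4 mRNA moved from -0.12 to between -0.151 and -0.155. The median mRNA change of all genes moved as well, from 0.03 to -0.01. Over all these alternatives the Sall4 fold change stayed between -0.26 and -0.07.

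Ribosome occupancy followed the same order. For RPF 3 of the 4 genes passed as lower, beside 28.7% of all genes, and 2 were called lower, beside 10.6%. The log2 fold change of RPF was -2.96 ± 0.12 for Sox2 (adjusted p = 4.56e-16), -1.61 ± 0.06 for Nanog (2.59e-16) and -0.50 ± 0.06 for Pou5f1 (1.09e-07). For Sall4 RPF it was -0.10 ± 0.07 (limma, adjusted p = 0.210), with a 95% interval of -0.23 to 0.04. Leaving out the libraries that stood apart in markers kept the 3 falls past the threshold. Without ESC total RNA replicate 2 the mRNA changes were -2.81 for Sox2, -1.63 for Nanog and -0.67 for Pou5f1. Without EpiLC total RNA replicate 1 they were -2.81, -1.61 and -0.67. Without EpiLC RPF replicate 1 the RPF changes were -3.03, -1.69 and -0.53.

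GC content moved with these values. The counted sequence of Sox2 is 66.4% GC, above 98.1% of genes, against 58.1% for Pou5f1, 52.6% for Nanog and 59.7% for Sall4. The level fitted from GC content alone for a gene like Sox2, set against its mean over the 12 libraries, was 0.48 log2 units in EpiLC RPF, 0.06 in EpiLC total RNA, -0.14 in ESC RPF and -0.41 in ESC total RNA. With a correction for GC content the Sox2 change was -3.20 for mRNA and -3.56 for RPF, and Sall4 passed the test for mRNA (-0.26, adjusted p = 0.000283) and for RPF (-0.28, 0.000370). Nanog, with the lowest GC content of the 4 genes, changed by -1.57 for mRNA and -1.61 for RPF under that correction.

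**Figure D2:**
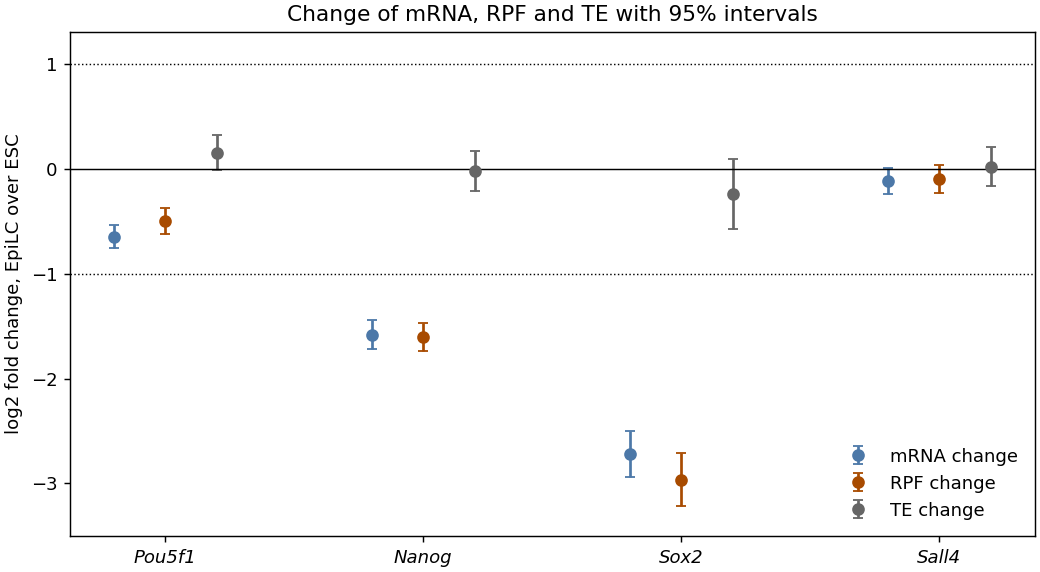
Log2 fold change of mRNA, RPF and TE (EpiLC over ESC, y axis) for each gene, with 95% intervals from limma over 12 libraries. Dotted lines mark the limit of 1 in either direction. Sox2 and Nanog lay beyond it for mRNA and RPF, and the TE intervals of all 4 genes crossed 0.

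The change of TE was tested as the interaction of assay and cell type. Of the 4 genes 0 passed (limma), beside 1.20% of all genes, and the lowest unadjusted p in that fit was 0.0698, for Pou5f1. The lowest adjusted p of the 4 genes was 0.450 with the edgeR quasi-likelihood test (Sox2) and 0.477 with DESeq2 (Pou5f1). The log2 change of TE was 0.15 ± 0.08 for Pou5f1 (adjusted p = 0.411, 95% interval -0.01 to 0.32). It was -0.24 ± 0.16 for Sox2 (0.539, -0.58 to 0.09) and -0.02 ± 0.09 for Nanog (0.937, -0.22 to 0.17). For Sall4 it was 0.02 ± 0.09 (0.950, -0.17 to 0.21). With the GC correction the Sox2 value was -0.36 ± 0.17 (limma, adjusted p = 0.345), a larger fall than under any other setting run. Leaving out 1 library moved the Sox2 value most, to -0.15 without EpiLC total RNA replicate 1, to -0.16 without ESC total RNA replicate 2 and to -0.28 without EpiLC RPF replicate 1, within a range of -0.33 to -0.15 over all 12 cases. The Pou5f1 value ran from 0.091 without EpiLC total RNA replicate 2 to 0.20, and was 0.17, 0.17 and 0.16 without the 3 libraries just named for Sox2. The Nanog value ran from -0.075 to 0.037 and the Sall4 value from -0.027 to 0.081, on both sides of 0. The adjusted p was 0.337 or more in every one of these cases for all 4 genes. A limma fit that took same-numbered libraries of a cell type as paired gave 0.15 ± 0.06 for Pou5f1 (adjusted p = 0.227). That was the lowest adjusted p for the TE change of the 4 genes in any fit run. A change of TE of the size of the Sox2 or Nanog mRNA change lies outside all 4 intervals, whereas a smaller change of Sox2 TE, down to 1.49-fold lower, does not.

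Within a cell type the 4 genes differed in TE. TMM scaling sets the typical gene near 0, with medians of -0.02 in ESCs and -0.01 in EpiLCs over all genes tested, so TE is relative to the typical gene. Nanog had a log2 TE of 1.08, 1.32 and 1.21 in the 3 same-numbered ESC library pairs and of 1.20, 1.07 and 1.25 in the EpiLC pairs. Its ratio of RPF to total RNA was thus 2.30 in ESCs and 2.26 in EpiLCs, above that of 89.3% to 95.6% of genes in every pair. Nanog was the 1 of the 4 genes called higher for TE, beside 7.93% of all genes in ESCs and 9.39% in EpiLCs, at 1.21 ± 0.05 (adjusted p = 1.40e-15) and 1.18 ± 0.07 (8.64e-13).

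Sox2 had a log2 TE of 0.65, 1.02 and 0.58 in the ESC pairs and of 0.43, 0.69 and 0.46 in the EpiLC pairs. Replicate 2 was the highest in both cell types, where Sox2 total RNA was the lowest. The fitted TE was 0.74 ± 0.07 in ESCs (adjusted p = 1.40e-09) and 0.50 ± 0.15 in EpiLCs (0.00456), and with the GC correction the former was 0.48 and still passed, while the latter was 0.12 and no longer passed (adjusted p = 0.4996). Sall4 had a log2 TE of 0.41, 0.58 and 0.41 in ESCs and of 0.48, 0.55 and 0.46 in EpiLCs. These overlapped between the states, and both fitted values passed, at 0.47 ± 0.06 (2.49e-07) and 0.49 ± 0.07 (7.83e-07).

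Pou5f1 stood closest to the typical gene. Its log2 TE was 0.03, 0.04 and -0.03 in the ESC pairs and 0.11, 0.20 and 0.18 in the EpiLC pairs. By number the EpiLC pairs all lay above the ESC pairs, by less than the interaction test could call. Same-numbered libraries were not taken as paired in that test, though the study describes the total mRNA as matched to the RPFs. With other pairings this order did not always hold. EpiLC RPF replicate 2 (1017 CPM per kb) was below EpiLC total RNA replicate 3 (1035). ESC RPF replicate 3 (1586) was above ESC total RNA replicate 1 (1491). The fitted TE of Pou5f1 was 0.02 ± 0.05 in ESCs (limma, adjusted p = 0.803) and 0.17 ± 0.06 in EpiLCs (0.0191). The latter no longer passed without EpiLC RPF replicate 3 (0.14, adjusted p = 0.0996), without EpiLC total RNA replicate 2 (0.11, 0.110), with total counts (0.13, 0.0765), without the low count filter (0.14, 0.0660) and with the GC correction (0.02, 0.735). In all, 3 of the 4 genes passed as higher than the typical gene in ESCs and 4 of the 4 in EpiLCs, beside 33.0% and 31.3% of all genes.

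**Figure D3:**
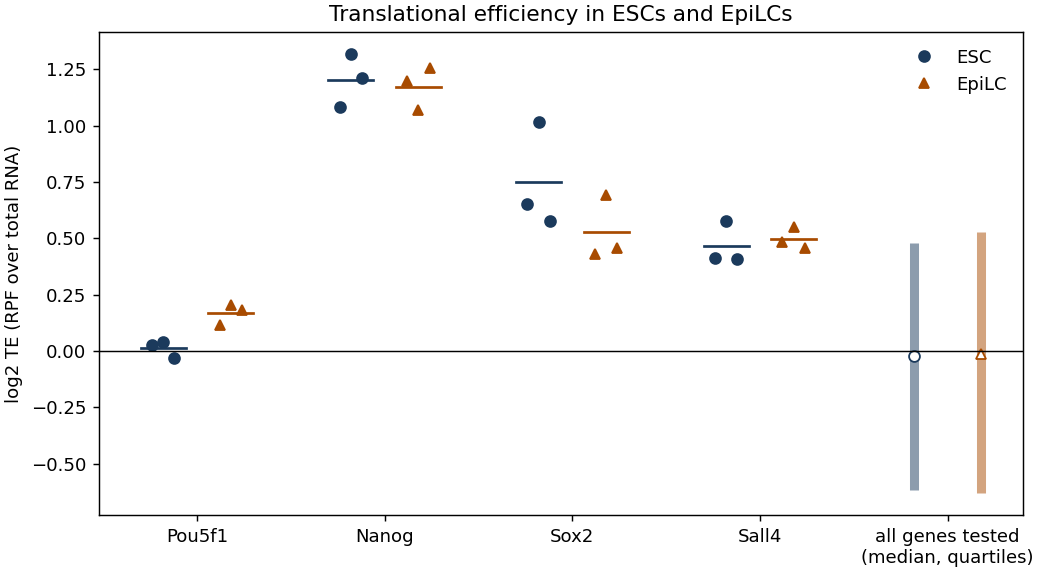
Log2 TE of each gene in same-numbered pairs of RPF and total RNA libraries, for ESCs (circles) and EpiLCs (triangles). Lines are means of 3 pairs, and bars at the right span the quartiles of the 11750 genes tested around their median. Nanog lay highest in both cell types, and Pou5f1 lay near the median of all genes.

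The balance among the 4 genes was read within each library, which is free of library scaling. In total RNA there were 37.4 Nanog per 100 Pou5f1 (per kb) in ESCs and 19.6 in EpiLCs, and in RPF 85.3 and 39.4. Sox2 stood at 13.6 per 100 Pou5f1 in ESC total RNA and 3.18 in EpiLC total RNA, and at 22.7 and 4.08 in RPF. Sall4 moved the other way, from 6.42 to 9.31 in total RNA and from 8.79 to 11.7 in RPF. In each of these 6 comparisons the 3 ESC libraries and the 3 EpiLC libraries did not overlap. An exact two-sided permutation test gave p = 0.1 for each, the smallest that 3 against 3 allows, and 0.1 after Benjamini-Hochberg adjustment over the 6, so none can pass a threshold of 0.05. Without the libraries that stood apart in markers the log2 ratios to Pou5f1 changed little. The Sox2 difference of -2.10 in total RNA became -2.17 when ESC total RNA replicate 2 was left out and -2.16 when EpiLC total RNA replicate 1 was, and that of -2.48 in RPF became -2.51 without EpiLC RPF replicate 1. For Sall4 the differences of 0.54 in total RNA and 0.41 in RPF became 0.50, 0.52 and 0.38, and for Nanog those of -0.93 and -1.11 became -0.96, -0.94 and -1.16. Nanog and Sox2 were thus lower relative to Pou5f1 in EpiLCs in every library, and Sall4 was higher relative to Pou5f1 in every library.

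**Figure D4:**
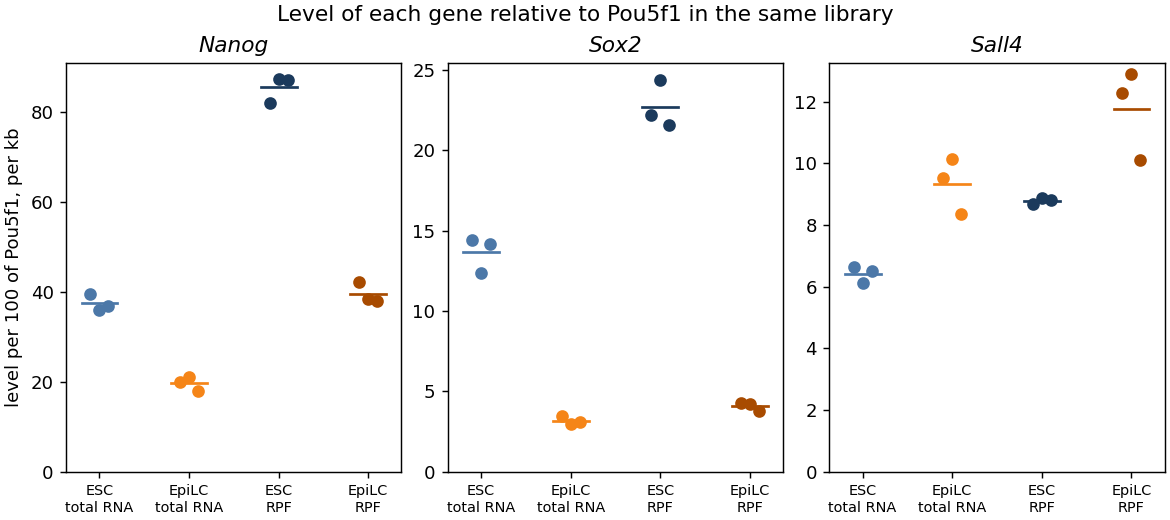
Level of Nanog, Sox2 and Sall4 per 100 of Pou5f1, per kb of counted sequence, in the same library (y axes start at 0 and differ between panels). Points are libraries and lines are means of 3. Nanog and Sox2 lay lower in EpiLCs and Sall4 higher, in both assays.

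The genes most alike in pattern were found by the root mean square difference of centred log2 CPM over the 12 libraries, where a small value means a like course. For Pou5f1 they were Xpnpep1 (0.067 log2 units), Osbpl7 (0.079) and Mcm6 (0.082). For Sox2 they were Aff1 (0.070), Kit (0.148) and Padi2 (0.161), and for Nanog Hebp1 (0.141), Tmem231 (0.141) and Tdrp (0.185). For Sall4 they were Prpf19 (0.064), Fkbp4 (0.070) and Psmd1 (0.074). These are the nearest of all genes by construction. Among the 4 genes the difference ran from 0.325 between Pou5f1 and Sall4 to 1.39 between Sox2 and Sall4. Nanog was the nearest of them to Sox2 (0.697), with 2.61% of the genes tested nearer, and Sall4 the nearest to Pou5f1, with 15.6% nearer. All values share the same libraries and carry no test.

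Other POU, SOX and SALL genes were listed as family paralogs. Of 28 listed, 15 passed the low count filter, and for mRNA 6 were called higher and 3 lower, beside 14.6% and 9.70% of all genes. Of these 9 called genes 4 (Sox3, Pou2f3, Sall3 and Sox15) passed that filter only through the cell type where they are high, so they had to differ, and their counts are a description. The counts of 6 and 3 were also found for RPF, beside 15.4% and 10.6% of all genes, while 0 of the 15 were called for TE, beside 0.255%. Sox3, the closest relative of Sox2 with Sox1 in the SOXB1 group, rose by 4.83 ± 0.51 for mRNA and 5.27 ± 0.37 for RPF, and by 5.60 for mRNA without ESC total RNA replicate 2. Sox11, a SOXC factor, rose by 3.05 ± 0.23 and 3.29 ± 0.27, and Pou3f1, a POU factor of the later epiblast also known as OCT6, by 3.03 ± 0.26 and 3.60 ± 0.32. Pou2f3 fell, with log2 fold changes of -4.26 ± 0.34 for mRNA and -3.61 ± 0.34 for RPF, as did Sall3 (-3.06 ± 0.24 and -3.41 ± 0.37) and Sox15 (-1.95 ± 0.36 and -2.48 ± 0.39). The other 3 called rises, named after their values were seen, were Sox4 (3.01 for mRNA), Sall2 (2.53) and Sox12 (1.02), of which Sox12 was at 0.99 and not called without EpiLC total RNA replicate 1 or without EpiLC RPF replicate 1.

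The SOXB1 genes were set beside Sox2 after their values were seen, as a description. Sox3 stood at 0.334, 1.87 and 0.328 CPM per kb in ESC total RNA, where replicate 2 is the library with more formative and primed marker RNA, and at 17.5, 19.4 and 16.3 in EpiLC total RNA. In RPF it stood at 2.74, 1.95 and 1.75 in ESCs and at 95.1, 97.7 and 64.4 in EpiLCs. In EpiLCs Sox3 was thus below Sox2 in every total RNA library (26.4 to 34.5 for Sox2) and above it in every RPF library (42.8 to 46.5). Of the summed level of Sox1, Sox2 and Sox3, Sox2 made up 94.8% to 95.7% in ESC total RNA and 96.0% to 96.9% in ESC RPF, but 49.1% to 54.6% in EpiLC total RNA and 26.9% to 35.8% in EpiLC RPF. The sum itself went from between 351 and 388 CPM per kb in ESC RPF to between 123.3 and 159.3 in EpiLC RPF, so that the 3 genes together were lower in every EpiLC library. Among POU genes Pou5f1 had no such rival, with Pou3f1 at 32.5 to 68.5 CPM per kb in EpiLC RPF. Among SALL genes Sall1 stood at 32.9 to 40.6 and Sall2 at 37.1 to 43.4 in EpiLC RPF, below the 119 to 133 of Sall4. In EpiLC total RNA Sall1 came closest, at 52.9 to 54.3 against 86.5 to 95.2 for Sall4.

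**Figure D5:**
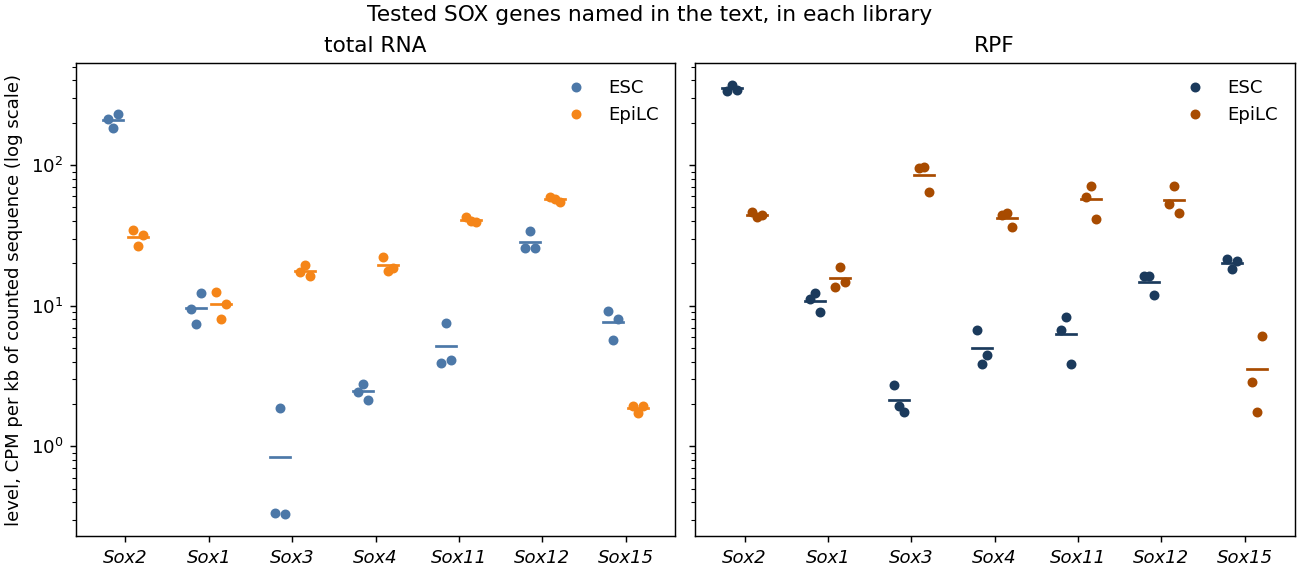
Levels of Sox2 and of other tested SOX genes (CPM per kb of counted sequence, log axis) in total RNA (left) and RPF (right). Points are libraries and lines are means of 3. In EpiLCs Sox3 lay below Sox2 in total RNA and above it in RPF.

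Proteins known to bind OCT4, NANOG or SALL4 were listed as partners, and all 18 were tested. For mRNA 4 were called lower and 0 higher, beside 9.70% and 14.6% of all genes, with a median log2 fold change of -0.42 against 0.03 for all genes. For RPF the counts were also 4 and 0, beside 10.6% and 15.4%. Those called are themselves naive state factors, with Tfcp2l1 at -5.12 ± 0.24, the orphan nuclear receptor gene Nr0b1 at -5.10 ± 0.28 and Esrrb, another orphan receptor gene, at -4.998 ± 0.21. Nr5a2 (-4.86), named after its value was seen, was the fourth, and passed the low count filter only through ESCs. By adjusted p alone 10 of the 18 passed as lower and 4 as higher for mRNA, beside 30.7% and 34.6% of all genes. Among those within the fold limit, named after their values were seen, Wdr5 (-0.81), Parp1 (-0.73) and Rest (-0.71) were the lowest, and Arid3b (0.85), Zscan10 (0.67) and Zfp609 (0.56) the highest.

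Known target genes of the OCT4 and SOX2 pair numbered 18, all tested, and their median log2 fold change for mRNA was -1.41. Of these 10 were called lower and 2 higher for mRNA, beside 9.70% and 14.6% of all genes, and 10 and 3 for RPF, beside 10.6% and 15.4%, while 0 were called for TE, beside 0.255%. The largest falls were those of Klf4, Klf2 and Tcl1 (-5.04 ± 0.35). Lefty1, a Nodal antagonist, rose by 2.83 ± 0.11 and Utf1, a chromatin protein of undifferentiated cells, by 1.34 ± 0.10. Phc1 (1.20 for RPF), named after its value was seen, was the third called higher for RPF. Fgf4, the classical target of a composite SOX and octamer element and also named after its value was seen, lay just past the limit at -1.02 ± 0.09. The naive markers and these target genes share Klf4, Klf2, Tbx3, Zfp42 and Esrrb, so their counts are not independent. Nor are those of the partners, which share Tfcp2l1, Nr0b1 and Esrrb with the naive markers and Esrrb and Rif1 with the targets. Pou3f1 is both a listed paralog and a formative and primed marker.

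Markers of other lineages were summed over each list in CPM. Of 8 mesoderm and endoderm markers 2 were tested, and their summed level was 10.5 to 12.3 CPM in ESC total RNA and 5.16 to 8.15 in EpiLC total RNA, with falls of Gsc (-2.62 ± 0.45) and Eomes (-1.19 ± 0.29). The 5 primitive endoderm markers summed to 4.46 to 6.07 CPM and 14.8 to 22.3 CPM, with Dab2 rising by 2.80 ± 0.30. The 6 neural ectoderm markers summed to 81.8 to 95 CPM and 61.7 to 72.1 CPM. Of the 3 tested, Pax6 rose by 4.77 ± 0.56, Tubb3 passed as lower within the fold limit (-0.75), and Sox1 (0.18) did not pass. The 6 trophectoderm markers summed to 91.5 to 135 CPM and 336 to 407 CPM, with Krt18 rising by 3.09 ± 0.14, Krt8 rising by 1.19 ± 0.11 and Tfap2c lower (-3.24 ± 0.23), and with Elf5 at 0 in all 4 groups. The 6 fibroblast markers summed to 1.26 to 1.54 CPM and 10.1 to 11.7 CPM, with Col1a1 rising by 2.11 ± 0.37, and with Dcn called higher from at most 3 counts in any ESC library. Lum and Postn were at 0 in total RNA. Of the genes named here Gsc, Dab2, Pax6, Col1a1 and Dcn passed the low count filter only through the cell type where they are high. The part of such cells in the falls of Sox2, Nanog and Pou5f1 was not tested.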

How the data were processed

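Raw counts per gene were deposited by the authors in 1 table. Per the study's methods and the submitters' processing notes, adapters were trimmed (cutadapt 1.14), uniquely mapped reads were kept (STAR 2.5.3a, mm10) and read 5′ ends were counted on the sense strand with featureCounts 1.5.3. Treatment of PCR duplicates is not given in the sources used here. The Poisson interval of the Sox2 count covers counting error only. Intervals of fold changes come from the limma SEs, which measure the spread between libraries.

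Genes with at least 3 CPM in at least 3 libraries (11750) were fitted in R 4.3.3 with TMM factors (edgeR 4.0.16), voom and limma 3.58.1, as 4 groups without a replicate block, with Benjamini-Hochberg adjustment over all. For TE per library pair and for likeness, log2 CPM used a prior count of 0.5. Symbols were matched to 22385 of the 22462 genes. The scripts were tested on simulated data.

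The members and lists were chosen with earlier results of these data known. Named genes were the 4 members, up to 3 called rises and falls per list with the largest mRNA change, and the 3 genes most alike to each member. The study describes the total mRNA as matched to the RPFs, and the titles number both alike. Same-numbered libraries were still not taken as paired in the main fit: their deviations correlated at -0.182 to 0.163. Replicate pairs differed beyond sampling noise (chi-square per degree of freedom 2.46 to 7.19). Alternatives were other tests (edgeR quasi-likelihood, DESeq2 1.42.0), scalings, filters, blocks, a GC correction and leaving out each library.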

Additional observations from a re-analysis of the deposited data

Results flagged for a closer look

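Sox12, a SOXC paralog of Sox2, was singled out because its change from ESCs to EpiLCs differed between the assays. Its TE rose by 0.89 ± 0.22 on the log2 scale (limma interaction, adjusted p = 0.0398), below the fold limit of 1. It stood at 16.2, 16.3 and 11.8 CPM per kb in ESC RPF and at 52.8, 70.6 and 45.5 in EpiLC RPF, against 25.9, 34.0 and 25.8 in ESC total RNA and 59.0, 57.5 and 54.7 in EpiLC total RNA. The groups did not overlap in either assay, and the gap was wider in RPF. With 1 library omitted at a time it no longer passed in 9 of 12 cases. The change then ran from 0.69 to 1.05 and the adjusted p from 0.0175 to 0.148. It also did not pass without the low count filter (0.90, adjusted p = 0.0813) and with the GC correction (0.72, 0.0553).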

How the results depend on the processing

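The falls of Sox2, Nanog and Pou5f1 for mRNA and RPF and the TE of Nanog and Sall4 within each cell type kept their direction and side of the threshold under every alternative that was run for them. The 6 ratios to Pou5f1, whose test cannot pass, kept their direction. Of 710 recomputed values for the comparisons 659 stayed alike and 51 did not, and the causes were not tested. Sall4 passed with the GC correction (-0.26 for mRNA and -0.28 for RPF), with DESeq2 (-0.17 for mRNA), with DESeq2 size factors (-0.16) and without the low count filter (-0.15), and when each library was left out its mRNA change ran from -0.17 to -0.072. The TE of Pou5f1 in EpiLCs no longer passed with the GC correction (0.024), without the filter (0.14) and with total counts (0.13), and ran from 0.11 to 0.24 with 1 library less. Nor did that of Sox2 in EpiLCs with the GC correction (0.12). Values near 0 changed sign: the TE of Pou5f1 in ESCs with the GC correction (-0.087), without the filter (-0.015), with total counts (-0.055) and with 1 library less (-0.0071 to 0.058), the TE change of Nanog with total counts (0.0036) and with 1 library less (-0.075 to 0.037), and the TE change of Sall4 with the GC correction (-0.018) and with 1 library less (-0.027 to 0.081).

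Over all genes 2852 were called for mRNA, 3059 for RPF and 30 for TE. At least 10 counts in every library, which tests fewer genes, left 1595 for mRNA and 1769 for RPF, with 4 and 5 of the family paralogs (9 each before) and 2 and 2 of the partners (4 each before). No filter gave 4441 for mRNA, and 14 paralogs for RPF. No fold limit gave 7680, 7029 and 141 for mRNA, RPF and TE, 14 and 15 partners for mRNA and RPF, and 1 paralog for TE. For TE DESeq2 called 56 genes, and with 1 library less 20 to 51 genes (51 without ESC total RNA replicate 1) and 0 to 1 paralogs. With a replicate block 53 genes were called for TE, and 7 of 12 libraries correlated best with their own number. The block changed no call for the 4 genes, with a TE change of 0.16 for Pou5f1 and -0.24 for Sox2.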
